A study of Mus musculus with 24 samples.

Results

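The lungs of AIRmin mice given urethane were compared with those of AIRmin mice given saline, 12 of the 24 mice of the series. The mice were chosen by their titles, 6 that name AIRmin and urethane and 6 that name AIRmin and saline, with 3 males and 3 females in each group. AIRmin is a mouse line bred for a low acute inflammatory reaction, and the other 12 mice belong to the AIRmax line, bred for a high one. Urethane was injected into the peritoneum 2 times, 48 h apart, at 1 mg per g of body weight. The control mice received saline on the same plan, and every lung was taken 21 days later. RNA of normal lung parenchyma was hybridised to Illumina bead arrays, 1 array per mouse, and each value is the log2 of a deposited normalised intensity. The ages of the mice are not given in the labels.

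Urethane (ethyl carbamate) is oxidised in the body to a vinyl carbamate epoxide that binds DNA, and it induces lung tumours in susceptible mice. DNA damage stabilises the transcription factor p53. p53 then binds near target genes that halt the cell cycle (Cdkn1a), start apoptosis (Bax) or limit p53 itself (Mdm2), at sites built from a pair of half-sites.

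A probe was tested when it lay above a background limit of 7.89 (log2 signal) on at least 3 of the 24 arrays, which left 18637 probes of 13402 genes. Correlations between the AIRmin arrays were 0.965 to 0.994 over these probes. The saline library labelled female of mouse 20 had log2 signals of 12.80 for Ddx3y and 7.91 for Xist. The other AIRmin females had at most 10.85 for Ddx3y and at least 10.80 for Xist, so at these genes the library stood with the males, and it was kept under its label.

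Transcripts of stratified squamous epithelium and skeletal muscle, tissues that lung parenchyma does not contain, divided the mice before any treatment effect was considered. A squamous score, the mean over 22 measured squamous genes of how far a mouse's log2 value lies from the gene's median in the 24 mice, was above 1 in 5 of the 6 saline mice and in 2 of the 6 urethane mice. These were saline mice 3, 10, 19, 20 and 23 and the female urethane mice 7 and 17. Krt13, a keratin of mucosal squamous epithelium, had a lowest, median and highest log2 signal of 7.60, 15.40 and 15.88 in saline mice and 7.28, 7.65 and 15.40 in urethane mice. The level of Krt13 was therefore either below background or among the brightest on the array, and which mice were bright followed the treatment only in part. Saline mouse 18, at 7.60, and urethane mice 8, 13, 14 and 15, at 7.28 to 7.66, were below background. Tnnt3, the troponin T of fast skeletal muscle, ran from 9.48 to 12.98 in saline and from 8.58 to 12.41 in urethane mice, so its groups overlapped as well.

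**Figure D1:**
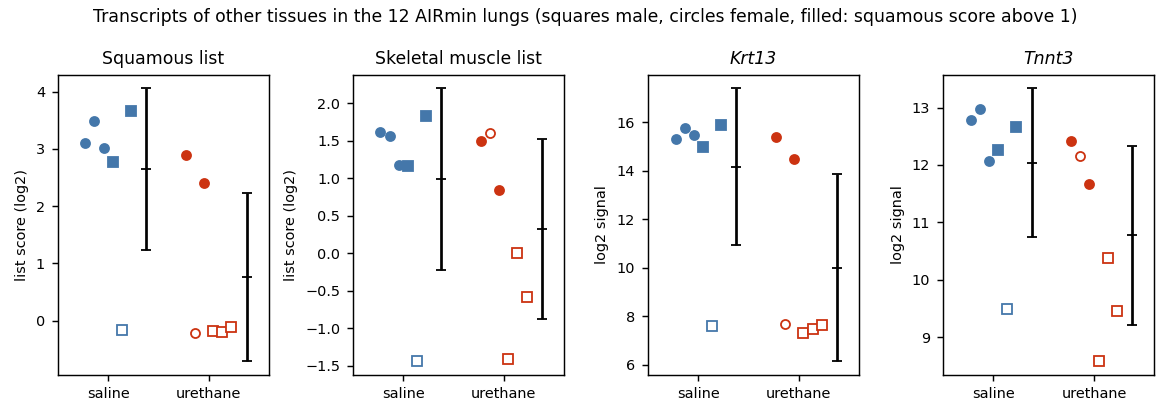
Squamous and skeletal muscle list scores and the log2 signals of Krt13 and Tnnt3 in each of the 12 AIRmin mice, with the mean and SD of each group of 6. Filled symbols are the mice with a squamous score above 1, which are 5 of the saline and 2 of the urethane mice.

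The differences at these genes were large and did not pass the test. Krt13 differed by -4.17 ± 1.71 (urethane minus saline, log2, SE, adjusted p = 0.376 by limma), and Tnnt3 by -1.26 ± 0.72 (adjusted p = 0.578). Krtdap, a protein of differentiating keratinocytes, differed by -4.66 ± 1.24 (adjusted p = 0.166). Krt13 was above background in 5 saline and 2 urethane mice and Krtdap in 5 and 1, so the background limits the size of both differences. Of the 22 squamous genes, 0 passed the test and 19 were lower at an unadjusted p under 0.05, with a median log2 difference of -1.38, where 4.74% of all genes were lower at that level. Of the 19 skeletal muscle genes 0 passed, with a median of -0.74. Without the mice scoring above 1 the median of the skeletal muscle genes turned to 1.00, with all 19 above 0. That turn rests on saline mouse 18 alone, whose skeletal muscle list score of -1.44 was the lowest of the AIRmin mice. Urethane mouse 8, with a low squamous score, had a skeletal muscle score above 1. The scores of urethane mice 13, 14 and 15 were -1.41, 0.009 and -0.589. A low squamous score therefore did not mean a lack of muscle transcripts. With the squamous score as a covariate the median was 0.40, with 17 above 0. The squamous score moves with the treatment. Several lists are given both with and without the mice scoring above 1, called squamous-high. The caution is that 1 AIRmin saline mouse, number 18, remains without them. How the 48 probes that passed behave without these mice follows at the end of the comparison, and the part of the squamous transcripts in the other results was not tested.

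Against this background, 48 of 18637 probes (0.258%) passed an adjusted p of 0.05 by limma, 38 higher in urethane mice (0.204%) and 10 lower (0.0537%). They represent 40 genes, 31 higher and 9 lower. Counted by the brightest probe of each gene, 34 of 13402 genes (0.254%) passed, 29 higher (0.216%) and 5 lower (0.0373%). The smallest difference that passed was 0.346 on the log2 scale. The values of the 6 urethane mice did not overlap those of the 6 saline mice at 40 of the 48 probes, and such separation was found at 0.998% of all tested probes (0.692% higher and 0.306% lower). The labels do not say whether the mice shared litters or cages, so the p-values measure the spread between these mice.

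**Figure D2:**
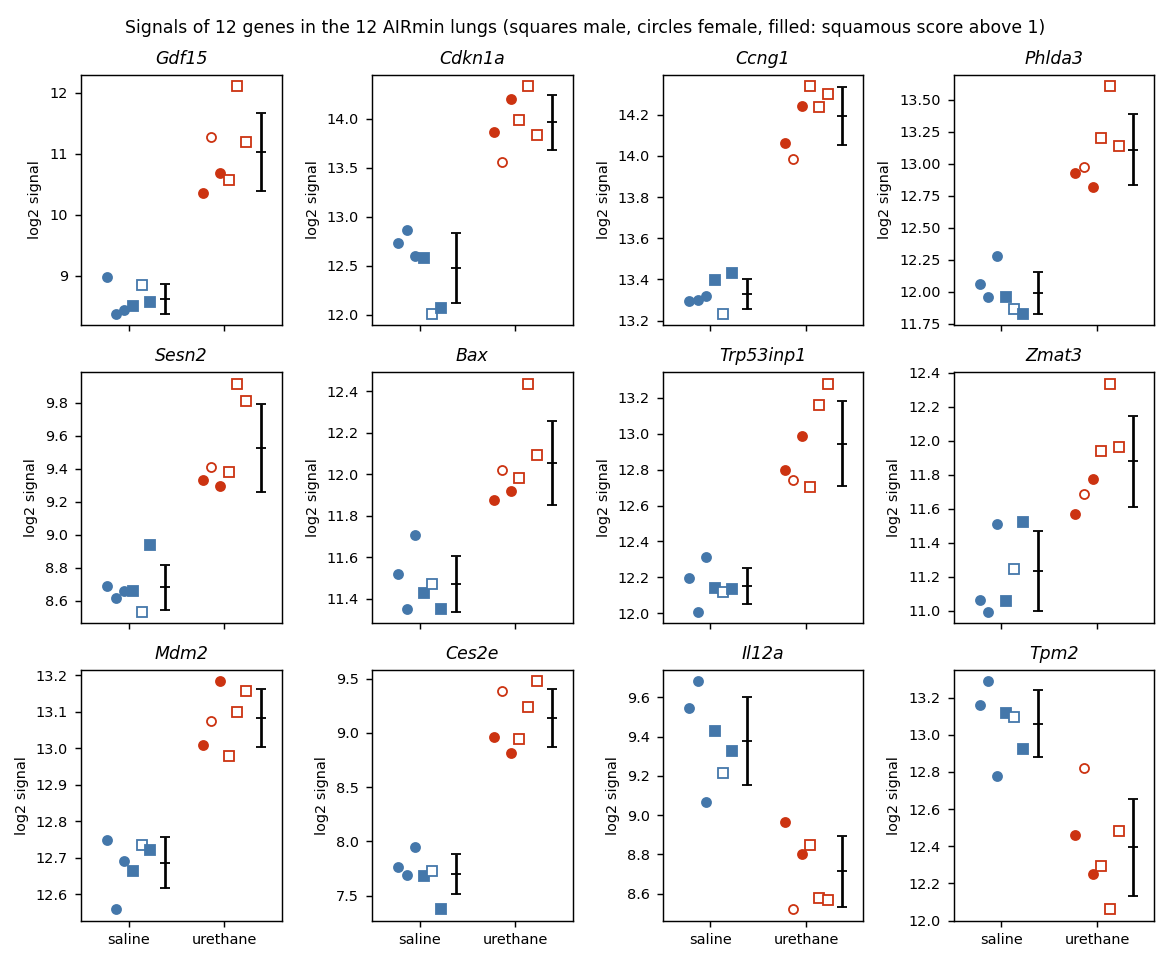
Log2 signal of 12 genes in each AIRmin mouse, with the mean and SD of each group of 6. At 11 of the genes the saline and urethane mice did not overlap, and at Tpm2 they overlapped, whether or not a mouse had a squamous score above 1.

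The genes leading the response were p53 targets. Gdf15, a secreted stress cytokine of the TGF-beta family, had a lowest, median and highest log2 signal of 8.37, 8.54 and 8.98 in saline mice and 10.36, 10.94 and 12.12 in urethane mice. Every urethane mouse lay above every saline mouse, by more than 1 log2 unit between the closest mice. Gdf15 rose by 2.42 ± 0.21, or 5.34-fold (adjusted p = 1.67e-06), and the male urethane mouse 14 was the highest. Cdkn1a encodes p21, an inhibitor of cyclin-dependent kinases that arrests the cell cycle. Its brightest probe ran over 12.01, 12.59 and 12.86 in saline mice and 13.56, 13.92 and 14.33 in urethane mice. The groups were again apart. Cdkn1a rose by 1.49 ± 0.14 at this probe, and its other probes gave 1.63 and 1.27, all with an adjusted p of 1.01e-05 or less.

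Ccng1, cyclin G1, had the smallest p. Its log2 signals were 13.23, 13.31 and 13.43 in saline and 13.98, 14.24 and 14.34 in urethane mice, a narrow band within each group and a gap between them. It rose by 0.87 ± 0.06 (adjusted p = 3.19e-07), and its other 2 probes gave 0.98 and 1.05. Phlda3, a p53-induced inhibitor of Akt signalling, was at 11.83, 11.96 and 12.28 in saline and at 12.82, 13.06 and 13.61 in urethane mice. These groups did not overlap either. Phlda3 rose by 1.12 ± 0.10 (adjusted p = 1.67e-06), while its dimmer probe, at 1.16 ± 0.30, did not pass (adjusted p = 0.151).

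Promoter sequence of these 4 genes is shown because they lead the response and p53 is known to act at several of them. The sequences are the 250 bases before the farthest upstream start in RefSeq (GRCm38.p6), 5′ to 3′ on the strand of the gene, and capitals mark matches to the p53 half-site, a 10-base motif that reads the same on both strands and was searched by its published consensus. They are Cdkn1a at chr17:29090729-29090978 (+), Ccng1 at chr11:40755287-40755536 (-), Phlda3 at chr1:135765835-135766084 (+) and Gdf15 at chr8:70632457-70632706 (-).
Cdkn1a: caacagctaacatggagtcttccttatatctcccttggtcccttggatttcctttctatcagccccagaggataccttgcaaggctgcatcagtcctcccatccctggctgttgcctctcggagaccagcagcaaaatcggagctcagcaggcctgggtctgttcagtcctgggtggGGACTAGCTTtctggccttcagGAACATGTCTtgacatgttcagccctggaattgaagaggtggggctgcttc
Ccng1: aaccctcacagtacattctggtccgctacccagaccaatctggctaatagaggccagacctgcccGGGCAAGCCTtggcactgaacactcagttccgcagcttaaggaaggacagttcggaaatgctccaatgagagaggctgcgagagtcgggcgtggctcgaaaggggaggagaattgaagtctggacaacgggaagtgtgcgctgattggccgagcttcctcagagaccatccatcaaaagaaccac
Phlda3: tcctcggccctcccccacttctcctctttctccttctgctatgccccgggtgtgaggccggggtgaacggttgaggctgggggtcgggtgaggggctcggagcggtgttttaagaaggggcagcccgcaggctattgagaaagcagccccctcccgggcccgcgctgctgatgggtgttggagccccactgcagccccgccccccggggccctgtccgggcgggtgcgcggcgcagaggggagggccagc
Gdf15: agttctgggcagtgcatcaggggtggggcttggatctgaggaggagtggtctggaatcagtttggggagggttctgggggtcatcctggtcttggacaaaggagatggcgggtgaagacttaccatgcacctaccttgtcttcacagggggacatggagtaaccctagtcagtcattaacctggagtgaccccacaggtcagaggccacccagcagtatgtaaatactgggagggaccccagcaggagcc

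Cdkn1a held 2 half-sites in this window and Ccng1 held 1. For Phlda3 and Gdf15 there was no match to these letters in the window, which says nothing of sites elsewhere. Among all 27025 genes of the table, 2216 (8.2%) held at least 1 half-site in the same window, and among the tested genes 767 of 10103 (7.59%). Of the 31 genes that rose, 25 were in the table and 9 of them (36%) held one. Of the 9 that fell, 7 were in the table and 3 (42.9%) held one. A match is a description of the sequence and no evidence of binding, and these counts are small.

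The remaining matches among the genes that rose, before any start of a gene, are shown with 10 bases on either side. They were chosen after their values were seen, because they show how much a half-site varies between these genes. On GRCm38.p6 they lie at chr7:78895927-78895956 (+) for Aen, chr7:45467080-45467109 (-) for Bax, chr3:145758660-145758689 (+) for Ddah1, chr6:33248915-33248944 (+) for Exoc4, chr3:105705367-105705396 (+) for Inka2, chr10:117710925-117710954 (-) for Mdm2 and chr13:96519399-96519428 (-) for Polk. Capitals again mark the half-site.
Aen: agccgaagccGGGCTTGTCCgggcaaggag
Bax: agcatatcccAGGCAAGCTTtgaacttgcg
Ddah1: ccggagctctGGGCATGCTCagtggcgcgg
Exoc4: tttattgtccAGGCATGCCCgggaccggca
Inka2: ctgtctgcccGGGCTTGTCTgccagcaggg
Mdm2: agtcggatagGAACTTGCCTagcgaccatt
Polk: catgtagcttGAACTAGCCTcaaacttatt

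The same windows of the genes that fell lie at chr14:103843825-103843854 (-) for Ednrb, chr12:104154064-104154093 (-) for Serpina3c and chr4:43523664-43523693 (-) for Tpm2.
Ednrb: agctaaaattGGGCTTGCTTcttcccggca
Serpina3c: gataaacagaAGACATGCCCagtacagcag
Tpm2: cagccgcagtGAGCTAGTTTtgcttccgac

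Over 4 lists of p53 targets and regulators, 56 of 63 genes were measured, 12 of them (21.4%) rose and 0 fell, where 0.216% of all genes rose, each gene by its brightest probe. The lists were chosen with earlier results of these data known, which may raise the share that rose. In the list of arrest and stress signalling, 4 of 14 rose: Gdf15, Cdkn1a, Ccng1 and Sesn2. The median log2 difference of that list was 0.29, against 0.0083 over all genes. Without the squamous-high mice the median of the list was 0.20, with 13 of the 14 above 0, against 12 in all mice. Sesn2, a sestrin that restrains mTORC1 under stress, was at 8.53, 8.66 and 8.94 in saline and 9.30, 9.40 and 9.92 in urethane mice. It rose by 0.84 ± 0.12 (adjusted p = 0.00181), with the male urethane mice 14 and 15 highest. Gtse1, which carries p53 out of the nucleus, was at 0.82 ± 0.18 with groups that did not overlap and did not pass the test. Sfn, known as 14-3-3 sigma and abundant in squamous epithelium, was at -0.92 ± 0.36 (adjusted p = 0.351), and its dimmer probe at 0.09.

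In the apoptosis list 5 of 15 genes rose: Phlda3, Trp53inp1, Zmat3, Bax and Aen. The difference of all 15 was above 0, with a median of 0.29. Without the squamous-high mice 12 of the 15 were above 0, with a median of 0.31. Trp53inp1, a nuclear protein that promotes p53 phosphorylation, rose by 0.79 ± 0.12 (adjusted p = 0.00237), from 12.01 to 12.31 in saline to 12.70 to 13.28 in urethane mice. Zmat3, an RNA-binding zinc finger protein, rose by 0.65 ± 0.11, from at most 11.52 in saline to at least 11.57 in urethane mice, so its groups all but touched. Bax, which permeabilises the mitochondrial outer membrane, was at 11.35, 11.45 and 11.71 in saline and 11.88, 12.00 and 12.44 in urethane mice. The groups were apart and Bax rose by 0.58 ± 0.09 (adjusted p = 0.00237). Aen, an apoptosis-enhancing nuclease, rose by 0.36 ± 0.07 near background, at 7.84 to 8.12 in saline and 8.19 to 8.61 in urethane mice, and its 2 other probes, at 0.17 and -0.05, did not pass. Pmaip1 (0.42), Bbc3 (0.29), Apaf1 (0.30) and Fas (0.27) did not pass the adjusted threshold.

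Among p53 and its regulators, 1 of 13 genes rose. Mdm2, the ubiquitin ligase that degrades p53 and is itself a p53 target, was at 12.56, 12.71 and 12.75 in saline and 12.98, 13.09 and 13.18 in urethane mice. It rose by 0.40 ± 0.06 (adjusted p = 0.00289) at this probe and by 0.51 at a second one, with the groups apart at both, while the remaining, dimmer probe gave 0.05 (adjusted p = 0.921). The transcript of p53 itself, Trp53, differed by 0.08 ± 0.06 (adjusted p = 0.709), with overlapping groups of 11.14 to 11.42 and 11.25 to 11.47. Trp63, the p53 relative of squamous and basal cells, was at -0.97 ± 0.40 (adjusted p = 0.384).

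In the list of repair and metabolism, Ephx1 and Polk rose, 2 of 14. Ephx1, microsomal epoxide hydrolase, was at 13.85, 14.01 and 14.18 in saline and 14.47, 14.74 and 14.96 in urethane mice. The groups did not overlap, and Ephx1 rose by 0.72 ± 0.09 (adjusted p = 0.000344). Polk, a polymerase that copies past bulky DNA lesions, rose by 0.47 ± 0.10 (adjusted p = 0.041), from 10.15 to 10.45 in saline to 10.57 to 10.94 in urethane mice. Of 29 other DNA repair genes and 20 genes of proliferation, 0 passed in either direction by limma, with 3 and 0 at an unadjusted p under 0.05, a level reached in either direction by 11% of all genes. Their median differences were -0.03 and 0.06.

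**Figure D3:**
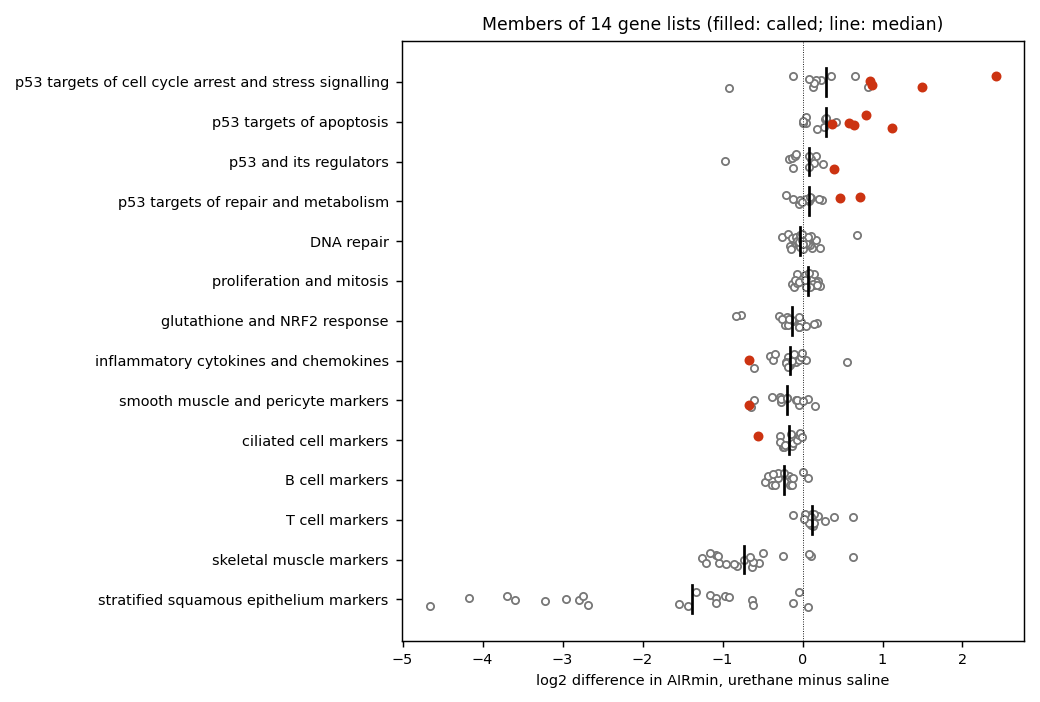
Log2 difference between AIRmin urethane and saline mice of each measured member of 14 gene lists, each gene by its brightest probe. Filled points passed the test, bars are list medians, and most filled points lie in the 4 p53 lists. The lists were chosen with earlier results of these data known.

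A split signal occurred among the repair genes as well. Mpg, the glycosylase that removes alkylated bases, had log2 signals of 8.81 to 9.33 in urethane mice 7, 8, 13 and 17 and of 7.75 and 7.87 in mice 14 and 15. Saline mice were at 7.75 to 7.91 except mouse 23, at 8.42. Mpg was above background in 2 saline and 4 urethane mice. Its difference of 0.69 ± 0.15 did not pass (adjusted p = 0.0844), is limited in size by the background and describes neither set of urethane mice.

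Of the genes of urethane oxidation and clearance, Ces2e and Ephx1 rose, 2 of 14. Ces2e, a carboxylesterase, was above background in 1 of 6 saline mice and in 6 of 6 urethane mice, with log2 signals of 7.37, 7.71 and 7.95 and of 8.81, 9.10 and 9.47. It rose by 1.44 ± 0.19 (adjusted p = 0.000462), a size limited by the background of the saline arrays. Cyp2e1, the cytochrome that oxidises urethane, differed by 0.27 ± 0.56 (adjusted p = 0.924) and overlapped widely, from 11.27 to 12.78 and from 11.10 to 12.89. Gstm1 (-0.41), Gsta4 (-0.38) and Gstp1 (-0.26), glutathione transferases, did not pass the adjusted threshold. In the glutathione and NRF2 list 0 of 18 passed by limma and 4 were lower at an unadjusted p under 0.05, with a score of -0.12 to 0.23 in saline and -0.16 to -0.07 in urethane mice. Over all genes, 4.74% were lower at that level. Without the squamous-high mice the median of this list moved from -0.13, with 3 of 18 above 0, to 0.0096, with 10 above 0. Gpx2, a glutathione peroxidase of epithelia, was at -0.77 ± 0.18 (adjusted p = 0.109). It was at -0.40 with the squamous covariate, at -0.24 without the squamous-high mice and at -0.93 without urethane mice 7 and 17, where it passed (adjusted p = 0.0226).

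Genes outside these lists made up the rest of the rise. Scn3b, a beta subunit of voltage-gated sodium channels reported as a p53 target, was at 10.24, 10.79 and 10.94 in saline and 11.54, 12.03 and 12.25 in urethane mice. The groups were apart and Scn3b rose by 1.29 ± 0.21 (adjusted p = 0.00635). Its other probes gave 0.83, 1.01 and 0.05, and none of these passed. Plau, the urokinase plasminogen activator, rose by 0.90 ± 0.12, from 9.42 to 10.06 in saline to 10.41 to 10.96 in urethane mice. Mmrn2, an extracellular matrix protein of endothelium, rose by 0.88 ± 0.13, from 12.20 to 12.58 to 12.90 to 13.70, and was the only 1 of 18 endothelial markers to rise. At both genes the groups were apart.

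Exoc4, a subunit of the exocyst that tethers vesicles to the plasma membrane, rose by 0.84 ± 0.10 (adjusted p = 0.000156). H4c8, a histone H4 gene, rose by 0.72 ± 0.10. Histone H4 genes are near-identical copies, so the H4c8 probe may read several of them. Csrnp2, a nuclear protein, rose by 0.60 ± 0.09, from a band of 10.58 to 10.69 in saline to 11.05 to 11.55 in urethane mice. Tnfrsf25, a death receptor of lymphocytes, rose by 0.56 ± 0.09 at its brightest probe, and its other probe gave -0.05. Nnat (0.73), which encodes neuronatin, Ddah1 (0.60), which degrades asymmetric dimethylarginine, Reep1 (0.55), an endoplasmic reticulum shaping protein, and Msx1 (0.52), a homeobox factor, rose too. The same holds for Ccdc184 (0.92), 4930486L24Rik (0.54), Purg (0.43), Inf2 (0.42) and Tulp4 (0.35). Inka2 and Mboat2 passed only at a probe other than their brightest, by 0.52 and 0.36, where the brightest gave 0.41 (adjusted p = 0.159) and 0.13 (adjusted p = 0.824).

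The 9 genes that fell included contractile genes. Acta2, smooth muscle alpha-actin, has 4 tested probes. At the probe with the smallest p it was at 13.002, 13.20 and 13.44 in saline and 12.04, 12.50 and 13.01 in urethane mice, with male urethane mouse 15 just above the lowest saline mouse, number 23. Acta2 fell by 0.70 ± 0.11 (adjusted p = 0.00447) there and by 0.66 ± 0.13 at a second probe. Its brightest probe, close to the top of the scale at 15.32 to 15.97, was at -0.28 ± 0.07 (adjusted p = 0.112), and the fourth at -0.42. Tpm2, beta-tropomyosin, fell by 0.67 ± 0.12 (adjusted p = 0.0149) at its brightest probe, from 12.78, 13.11 and 13.29 to 12.06, 12.38 and 12.82.

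Another Tpm2 probe followed skeletal muscle instead. It was at 7.62 in saline mouse 18 and at 12.46 to 13.47 in the other saline mice, and its difference of -0.95 ± 1.06 did not pass (adjusted p = 0.82). At the brightest Tpm2 probe mouse 18 was at 13.10, within the range of the saline mice. Of the 15 measured smooth muscle and pericyte genes, 12 were below 0, 7 at an unadjusted p under 0.05 (4.74% of all genes), and Tpm2 alone passed by its brightest probe. Without the squamous-high mice 9 were below 0, with a median of -0.19 in both fits, and 0 passed. The smooth muscle score was 0.16 to 0.30 in saline and -0.20 to 0.17 in urethane mice. Des (-0.65), Actg2 (-0.60) and Myh11 (-0.38) did not pass. In whole lung, fewer cells of a type and less RNA per cell cannot be told apart.

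Il12a, the p35 subunit of interleukin 12, was at 9.07, 9.38 and 9.68 in saline and 8.52, 8.69 and 8.97 in urethane mice. The groups were apart, and Il12a fell by 0.66 ± 0.11 (adjusted p = 0.00792). It was the only 1 of 20 cytokines and chemokines to pass, and 2 of the 20 were above 0, Ccl5 (0.56) and Nos2 (0.04), with a median of -0.16. Without the squamous-high mice 8 of the 20 were above 0, with a median of -0.04. Il1b differed by -0.18 ± 0.39 (adjusted p = 0.93), and the neutrophil calprotectin subunit S100a8 by -0.65 ± 0.38 (adjusted p = 0.592). Of 13 neutrophil markers 0 passed by limma, with 0 at an unadjusted p under 0.05, and their median was -0.37. It was -0.41 without the squamous-high mice and -0.72 without urethane mice 7 and 17.

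The other genes that fell were of several kinds. Tppp3, a tubulin-binding protein abundant in ciliated cells, fell by 0.56 ± 0.10 (adjusted p = 0.0193), from 12.86, 13.28 and 13.44 to 12.29, 12.78 and 12.84. The groups were apart by a narrow margin. It was the only 1 of 14 ciliated cell markers to pass, and all 14 were below 0 with a median of -0.17. Without the squamous-high mice 5 of the 14 were above 0, with a median of -0.12. Upk3b, a marker of mesothelium in mouse, fell by 0.52 ± 0.10 at 1 of 3 probes, and the others gave -0.43 and -0.42. Ednrb, the endothelin B receptor, fell by 0.76 ± 0.15 at 1 probe, and its brightest gave -0.32 (adjusted p = 0.559). Serpina3c, a serine protease inhibitor, fell by 0.75 ± 0.14 and Dpysl5, of the collapsin response mediator family, by 0.64 ± 0.11, both with overlapping groups. Hp, haptoglobin, fell by 0.48 ± 0.10 at 1 probe, and its brightest gave -0.11 (adjusted p = 0.483).

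Lymphocyte and lung epithelial lists gave no calls apart from Tppp3. Of 15 B cell markers 0 passed by limma and 6 were lower at an unadjusted p under 0.05 (4.74% of all genes), among them Cd79b (-0.47). Their median of -0.23 was -0.41 without the squamous-high mice, where 0 of the 15 were above 0. Of 16 T cell markers 0 passed, and 15 were above 0 with a median of 0.11. Their scores were raised in urethane mice 7 (0.28) and 17 (0.42) and lay between -0.33 and -0.13 in the other urethane mice. The direction turned without these 2 mice, with 6 above 0 and a median of -0.02, and without all squamous-high mice, with 3 above 0 and a median of -0.17. Sftpc, the surfactant protein of alveolar type 2 cells, and Scgb1a1, the club cell secretory protein, differed by 0.01 ± 0.04 and -0.01 ± 0.04. Both sat at about 16 on the log2 scale in every AIRmin mouse, near the top of the range, where differences are compressed. Both lung markers were therefore high in all 12 mice, including those with squamous transcripts.

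Without the squamous-high mice the differences kept their sign and about their size, and most lost the call. When the 7 AIRmin and 2 AIRmax mice with a squamous score above 1 were left out, 8 probes passed, 5 of them among the 48, at Cdkn1a (3 probes), Ccng1 and Phlda3. Over the 48 probes the median ratio of the difference to that in all mice was 1.07. This fit has 1 AIRmin saline mouse, number 18, whose spread is assumed to be that of the other groups. In it Cdkn1a rose by 1.99 at its brightest probe (adjusted p = 0.0113) and Phlda3 by 1.41 (adjusted p = 0.0481), and Gdf15 was at 2.49 (adjusted p = 0.091). Saline mouse 18 had 12.01 for Cdkn1a and 11.86 for Phlda3, where the 4 urethane mice without squamous transcripts had at least 13.56 and 12.97. Of the 56 p53 genes, 3 rose in this fit and 44 were above 0, against 43 in all mice.

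With the squamous score as a covariate 25 probes passed, 21 of them among the 48, and the median ratio was 0.954. Those included all probes of Cdkn1a, Ccng1 and Gdf15 and 1 each of Phlda3, Mdm2, Trp53inp1, Sesn2 and Acta2. Of the 56 p53 genes, 7 rose. Among the 7 AIRmin mice with a score above 1, 5 saline and 2 urethane, 1 probe passed, of Cdkn1a, at 1.31 (adjusted p = 0.0202). There Gdf15 was at 1.93 (adjusted p = 0.109) and Ccng1 at 0.85 (adjusted p = 0.158). Il12a was at -0.55 to -0.59 with the covariate, in that class and without the class, and passed in none of these 3 fits, and at -0.59 with the class as a block it passed (adjusted p = 0.0381). All 48 probes kept their sign in each of these fits, but they were chosen by their values in these same mice. At the 40 whose groups did not overlap, leaving mice out can hardly change the sign.

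**Figure D4:**
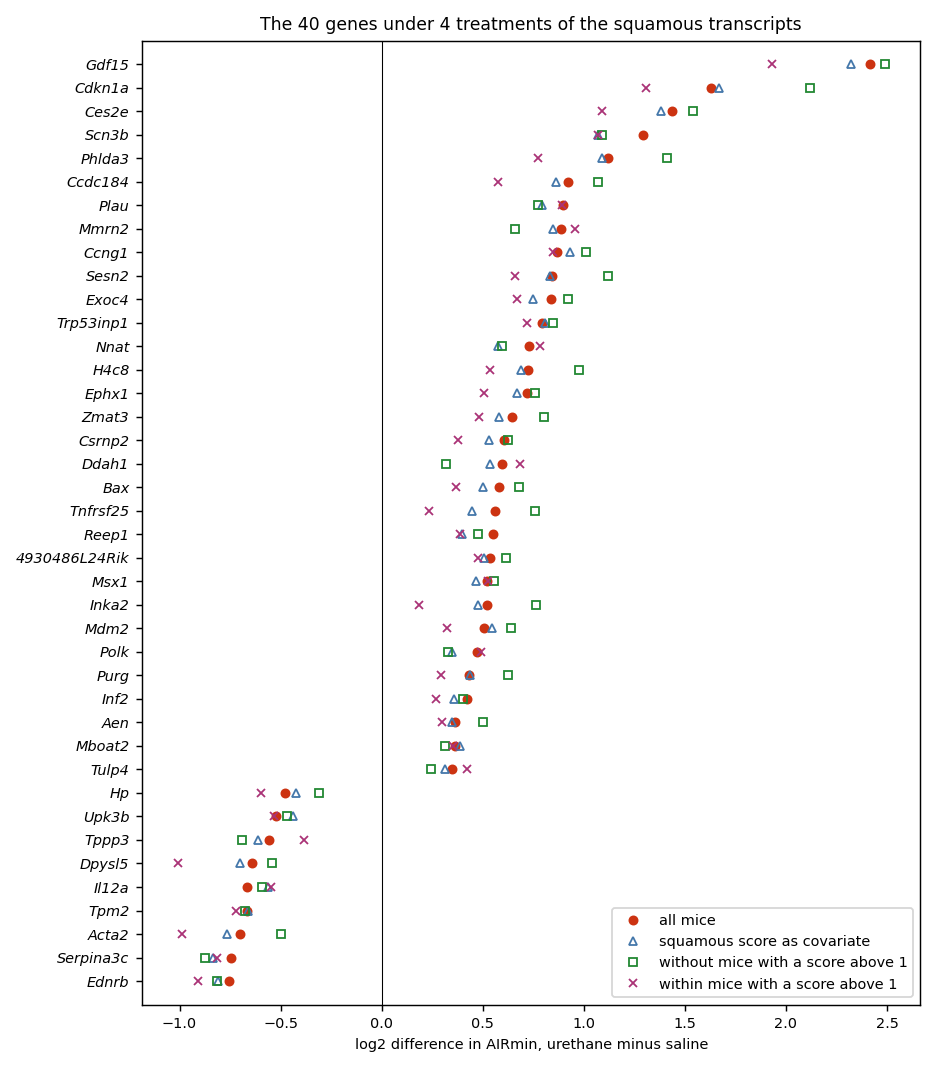
Log2 difference in AIRmin of the 40 genes, each by its probe with the smallest p, in all mice, with the squamous score as a covariate, without the mice with a score above 1, and within the AIRmin mice with a score above 1. The sign is the same in all 4 fits for each gene, and the genes were chosen by their values in these same mice.

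When only urethane mice 7 and 17 were left out, 163 probes passed, 105 higher and 58 lower, with 41 of the 48 among them. That comparison sets 4 urethane mice without squamous transcripts against 5 saline mice with them and 1 without. Without mouse 20, 28 probes passed, all among the 48, and 10 of the 56 p53 genes rose. Acta2, Il12a and Serpina3c were the genes that fell in that fit.

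In AIRmax mice 38 probes (0.204%) passed for the same treatment, and 21 of the 48 AIRmin probes were among them. The lines share no mice but share the estimate of the spread. Of the 48 probes, which were chosen by their AIRmin values, 47 had the same sign in AIRmax, all but Purg. Gdf15 differed by 2.30 ± 0.21 in AIRmax, Cdkn1a by 1.498 ± 0.14, Ccng1 by 0.91 ± 0.06 and Phlda3 by 0.99 ± 0.10, each within 1 SE or little more of its value in AIRmin. The test of the difference between the lines passed at 0 of 18637 probes by limma, with 1169 (6.27%) at an unadjusted p under 0.05 and a smallest adjusted p of 0.526. In AIRmax the mice with a squamous score above 1 were urethane mice 2 and 4. The median of the squamous list was 0.66 in AIRmax and -1.38 in AIRmin, and of skeletal muscle 0.81 and -0.74. Over all tested probes the differences of the lines correlated at -0.147 (Pearson) and 0.185 (Spearman). With the squamous score as a covariate these were 0.347 and 0.263.

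**Figure D5:**
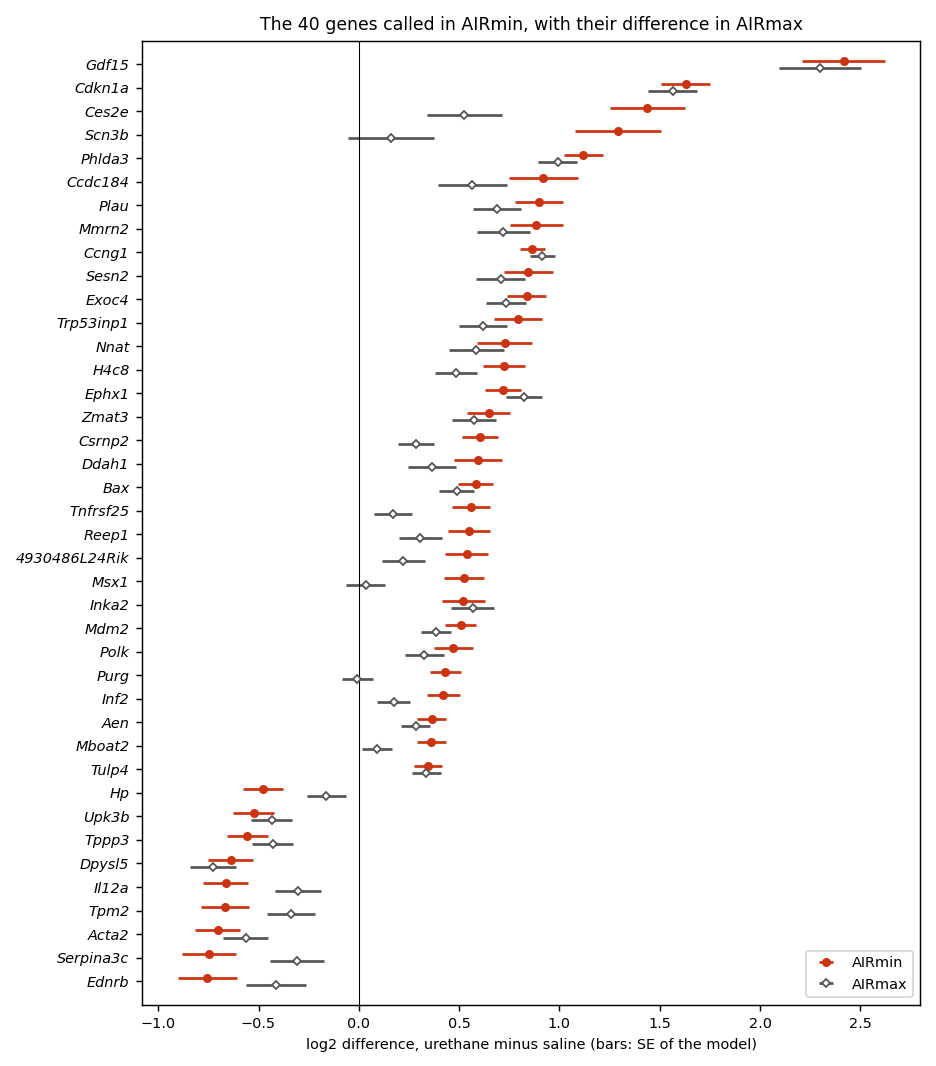
Log2 difference between urethane and saline mice, with the SE of the model, of the 40 genes in AIRmin (filled circles) and in AIRmax (open diamonds), each by its probe with the smallest p in AIRmin. Most AIRmax values lie on the same side of 0, and Scn3b, Purg and Msx1 lie near 0 in AIRmax.

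Of the 48 probes, 12 had an unadjusted p under 0.05 by limma for the difference between the lines. The 48 were chosen by their AIRmin values, which raises this count, and 42 of them had the larger difference in AIRmin. The same limit holds for the single genes below. Scn3b rose in AIRmin by 1.13 ± 0.30 more than in AIRmax (unadjusted p = 0.00134, adjusted p = 0.672), and Purg by 0.44 ± 0.11 (unadjusted p = 0.000768). Ces2e differed by 0.91 ± 0.26 and Msx1 by 0.49 ± 0.14. The saline levels of the lines differed at Scn3b, where AIRmax saline mice had log2 signals of 11.53 to 12.82 and AIRmin saline mice at most 10.94. AIRmin urethane mice, at 11.54 to 12.25, lay within the AIRmax range. At Purg and Msx1 the AIRmin urethane mice likewise reached or passed the AIRmax saline mice, at 8.51 to 8.99 against 8.37 to 8.88 and at 9.61 to 9.97 against 9.50 to 9.80.

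The response of the sexes was compared by the male minus the female difference. It passed at 0 of 18637 probes by limma, with 693 (3.72%) at an unadjusted p under 0.05 and a smallest adjusted p of 0.775. Of the 38 probes that rose, 29 had the larger difference in males, where 52.9% of all probes had a higher difference in males. Of the 10 that fell, only 3 fell more in males. Cdkn1a rose by 1.83 ± 0.19 in males and 1.14 ± 0.19 in females at its brightest probe, a difference of 0.68 ± 0.27 (unadjusted p = 0.0211, adjusted p = 1). Phlda3 rose by 1.43 ± 0.14 in males and 0.81 ± 0.14 in females, a difference of 0.62 ± 0.19 (unadjusted p = 0.00415). The male urethane mice 13, 14 and 15 were all without squamous transcripts and the female ones included mice 7 and 17, and female saline mouse 20 had the male pattern of sex-linked genes. Female urethane mouse 8, without squamous transcripts, had 12.98 for Phlda3 and 13.56 for Cdkn1a, below the 3 males, which had at least 13.14 and 13.83. Female mouse 17, with them, had 12.82 and 14.20. Only 1 female urethane mouse lacked squamous transcripts, so sex and squamous transcripts are separated by that mouse alone.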

How the data were processed

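Illumina bead arrays measured lung RNA, 1 array for each of 24 mice. Groups and mouse numbers came from the titles. The deposited values are linear intensity values for 25697 probes, made with BeadStudio per the submitters' processing notes. Sorted values differed by at most 0.871% between arrays, with array medians of 370.1 to 370.9, so the deposited intensities were treated as quantile normalised and only log2 was taken. No source used here gives the authors' background step. The authors' other tables hold 72 signal and detection columns named by slide and position, which could be tied to no sample and stayed out. A link between slide and group was not tested.

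The background limit was the mode of all log2 values plus the upper 0.01 quantile of a normal with the SD below the mode. The density bandwidth of 0.05 was taken after several settings had been tried, because it matched the limit of an earlier analysis of these arrays. Symbols came from the authors' table, and 4122 were updated through RefSeq (GRCm38.p6). A gene stands for its brightest tested probe unless stated.

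Tests used lmFit and eBayes of limma 3.58.1 (R 4.3.3), with 8 means (line, sex and treatment), 16 residual degrees of freedom and Benjamini-Hochberg adjustment over all tested probes, with calls at 0.05. The AIRmin difference averages males and females. The script was tested on simulated data. Genes named were all genes with a called probe, up to 4 called members of each list or the 2 with the smallest p, and a fixed set that includes Krt13, Tnnt3 and lung markers, of which a selection is printed. The members and lists were chosen with earlier results of these data known. The number of arrays limits the precision.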

Additional observations from a re-analysis of the deposited data

Results flagged for a closer look

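In groups of 6 mice, a value stands apart here when its gap to the nearest other mouse exceeds Dixon's critical share of the group's range. Of 150 groups of a probe and a treatment, 12 held such a mouse, and chance flags about 1 in 20 groups. Values are log2 signals. Saline mouse 18 was lowest for Krt13 (7.60, the others at least 14.98), Krtdap (7.48, the others at least 13.5) and Tnnt3 (9.48, the others at least 12.1). Urethane mouse 17 was highest for Krtdap at 13.5, where the others, including squamous-high mouse 7, were at most 7.64. Saline mouse 23 was lowest for Tppp3 (12.9) and for the brightest Acta2 probe (15.7), and highest for Ccdc184 (8.87) and Mpg (8.42). Urethane mouse 14 was lowest for Tppp3 (12.3) and highest for Upk3b at its called probe (10.8). Saline mouse 19 was highest for Il1b (11.2) and for Upk3b at its brightest probe (13.3).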

How the results depend on the processing

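The count of 48 probes was 178 with array weights, 25 with a squamous covariate and 30 with squamous, muscle and hepatocyte scores. It was 8 without all mice with a squamous score above 1, and 1 within the AIRmin mice above 1. Within the AIRmin mice at 1 or less, 5 probes passed, 0 of them among the 48, in a fit with 1 saline mouse that is assumed to vary like the 4 urethane mice. In alternatives chosen after seeing the data it was 10 without the AIRmin mice above 1 (AIRmax kept) and 163 without urethane mice 7 and 17, and it stayed at 48 with R's default density bandwidth (limit 7.97, 17900 probes). Leaving out each AIRmin mouse in turn gave 28 (without mouse 20) to 59 (without mouse 18). The other settings gave 33 to 49. The fits by squamous class and the fit without mice 7 and 17 took sex as an added term, so their model also differed from that of the 48. All 48 kept their sign in every setting that tested them. For the 40 whose groups did not overlap, leaving mice out can hardly change the sign.

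The test between the lines called 0 probes, 1 without mice above 1, 2 with AIRmax kept, and 0 to 2 with each mouse left out. The test between the sexes called 0, and 0 to 3 with each mouse left out (3 without mouse 10). Over all settings 439 values of single probes lost their call and 29 gained one, labels given only to values that kept their sign. No value called in either fit changed sign. Sign changes at probes called in neither fit were counted as unchanged. With the squamous covariate, for example, Krt13 went from -4.17 to 0.45 and Tnnt3 from -1.26 to 0.31. No paired analysis was possible because no mouse number occurs more than once. Signal near background limits Ces2e, Aen, Mpg, Krt13, Krtdap, Mboat2 and Sesn2's dim probe, and signal near the top of the scale limits Acta2, Sftpc and Scgb1a1.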
